A study of Mus musculus with 3 samples.

Results

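The genes that encode inhibitors of the cyclin-dependent kinases (CDKs) were followed in activated mouse B cells given 1 of 2 drugs or vehicle. Members were the 8 genes Cdkn1a, Cdkn1b, Cdkn1c, Cdkn2a, Cdkn2b, Cdkn2c, Cdkn2d and Cdkn3, taken by symbol from tables of 33605 symbols. Of these 7 had a row, and the RNA of Cdkn2d was not analysed here. Levels are in RPKM, read counts scaled to the length of the gene and the size of the library. A minimum of 1 RPKM, averaged over the libraries, was reached by 14790 genes in all and by 6 members, all but Cdkn1c.

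There were 3 libraries, 1 for each treatment, of total RNA from spleen B cells of C57BL/6 mice selected as lacking CD43. All were cultured in RPMI1640 for 3 days with lipopolysaccharide (LPS), which triggers Toll-like receptor signalling, and interleukin-4 (IL4), a cytokine of helper T cells. DMSO, the solvent, was the control; JQ1+, which keeps BET bromodomain proteins off acetylated histones, was used at 80 nM, and flavopiridol at 30 nM. Flavopiridol is itself a small-molecule inhibitor of CDKs, among them Cdk9 of transcription elongation as well as CDKs of the cell cycle. Age, sex and number of mice are not given in the labels, nor whether the cultures came from the same animals.

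CDK inhibitors are the brakes of the cell cycle. Proteins of the Cip/Kip family (p21 from Cdkn1a, p27 from Cdkn1b, p57 from Cdkn1c) bind complexes of cyclins with several CDKs. Those of the INK4 family (p16 and others, from Cdkn2a to Cdkn2d) bind Cdk4 and Cdk6 alone and keep them from D-type cyclins. When these kinases are held back, RB proteins stay unphosphorylated and block the E2F factors that switch on S phase. Cdkn3 differs in kind: it encodes a phosphatase that removes the activating phosphate from Cdk2. In lymphocytes p27 is known as a guard of quiescence and p18, from Cdkn2c, for its part in plasma cell formation.

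Since each treatment had 1 library, no difference below has a replicate check and none was tested. The words rose and fell are kept for genes that reached the minimum and whose log2 change, computed on RPKM + 1, was 1 or more in size, a 2-fold rule. Ratios are of plain RPKM, and their 95% intervals cover counting error only. A change in cell numbers cannot be told apart from one in RNA per cell in bulk RNA. The deposited counts summed to between 50184508 and 59786847 per library. The B cell receptor gene Cd79a was at 477 RPKM in DMSO, 507 in JQ1+ and 266 in flavopiridol. Some markers listed for other cells were at or near 0, such as the T cell gene Cd3e, and others were not, such as Batf3, Flt3, Pecam1, Lck and Cd68; their sums are given at the end.

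Of the members that reached the minimum, Cdkn1a, Cdkn2a and Cdkn2b had the largest log2 changes between libraries. The stretches before the transcription starts of these 3 genes are therefore shown first. Each is the 250 bases up to the start, 5′ to 3′ on the strand of the gene, from RefSeq on GRCm38.p6, a later build than the mm9 of the tables. Of the 8 members 7, all but Cdkn1c, had such an entry, with 10 starts between them. Cdkn2d, which had no row of RNA values, is among these 7. Capitals mark a letter match on either strand to the paired core of a p53 site (CATG, 6 bases of any kind, CATG), the cyclic AMP response element (TGACGTCA) or the GC box bound by Sp1 (GGGCGG). Cdkn1a has an upstream start (chr17:29090729-29090978, plus strand) and a downstream start (chr17:29093519-29093768, plus strand) 2790 bases apart. Cdkn2a has a first start, from which the p19Arf transcript begins (chr4:89294620-89294869, minus strand), and a second for p16Ink4a (chr4:89282193-89282442, minus strand), 12427 bases apart. Cdkn2b has one start in the same stretch of chromosome 4 (chr4:89311033-89311282, minus strand).
Cdkn1a upstream start: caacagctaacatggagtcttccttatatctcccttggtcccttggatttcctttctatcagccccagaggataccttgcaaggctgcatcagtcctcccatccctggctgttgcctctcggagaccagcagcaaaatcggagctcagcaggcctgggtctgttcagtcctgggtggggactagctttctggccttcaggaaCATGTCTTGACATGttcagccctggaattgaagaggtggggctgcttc
Cdkn1a downstream start: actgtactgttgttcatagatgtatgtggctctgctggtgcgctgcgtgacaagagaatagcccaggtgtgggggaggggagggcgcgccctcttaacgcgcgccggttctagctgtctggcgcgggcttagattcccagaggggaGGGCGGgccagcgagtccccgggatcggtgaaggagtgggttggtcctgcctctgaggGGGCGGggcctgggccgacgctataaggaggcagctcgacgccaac
Cdkn2a p19Arf start: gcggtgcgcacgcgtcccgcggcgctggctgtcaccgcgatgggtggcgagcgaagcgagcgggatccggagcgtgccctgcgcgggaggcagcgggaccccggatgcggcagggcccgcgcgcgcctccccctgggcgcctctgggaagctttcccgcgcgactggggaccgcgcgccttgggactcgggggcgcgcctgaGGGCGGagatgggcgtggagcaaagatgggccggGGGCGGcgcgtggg
Cdkn2a p16Ink4a start: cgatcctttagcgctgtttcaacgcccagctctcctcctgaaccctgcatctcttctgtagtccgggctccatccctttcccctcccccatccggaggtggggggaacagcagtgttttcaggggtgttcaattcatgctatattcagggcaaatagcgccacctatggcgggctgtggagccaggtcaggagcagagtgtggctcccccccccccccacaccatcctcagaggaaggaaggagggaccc
Cdkn2b start: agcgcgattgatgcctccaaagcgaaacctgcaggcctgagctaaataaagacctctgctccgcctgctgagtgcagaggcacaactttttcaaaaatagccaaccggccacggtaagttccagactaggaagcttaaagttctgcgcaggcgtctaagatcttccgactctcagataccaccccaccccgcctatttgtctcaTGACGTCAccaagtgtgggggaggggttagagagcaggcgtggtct

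The p53-type core stood 48 to 35 bases before the upstream Cdkn1a start and in no other window of the members. Among 32851 windows of that length over all genes, 0.49% held it. The cyclic AMP element lay 46 to 39 bases before the Cdkn2b start and matched 1.55% of all windows. The GC box was present in 6 of the members' 10 windows and in 32.7% of all windows; Cdkn2b was the member with an entry that lacked it. An E-box with the letters CACGTG, the kind MYC binds, was in none of the members' windows and in 6.02% of all windows. No match overlapped another. The motifs were chosen with the sequences in view, the RNA values do not show which start was used, and the tables hold 1 value per gene, so p16Ink4a and p19Arf cannot be separated.

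In the DMSO library the members ran from 43.2 RPKM for Cdkn1b down to 0.64 for Cdkn1c. After Cdkn1b came Cdkn3 at 38.2, Cdkn2c at 19.6, Cdkn1a at 14.7, Cdkn2a at 9.28 and Cdkn2b at 7.47 RPKM. The counting intervals of Cdkn1b (41.0 to 45.5) and Cdkn3 (34.0 to 42.7) overlapped, as did those of Cdkn2a (7.36 to 11.5) and Cdkn2b (5.90 to 9.33). Such overlap is not a test of whether the levels differ. Cdkn1b stood at percentile 69.9 of the genes with at least 1 RPKM in that library and Cdkn2b at percentile 29.4. Levels between genes depend on the gene lengths used. The RPKM of Cdkn1a imply 2223 bases where a later annotation has 3553, and those of Cdkn3 imply 1089 against 2371, while ratios between libraries do not depend on this. With the later lengths Cdkn1a would stand at 9.19 RPKM in DMSO, level with Cdkn2a, and Cdkn3 at 17.5, below Cdkn2c.

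**Figure D1:**
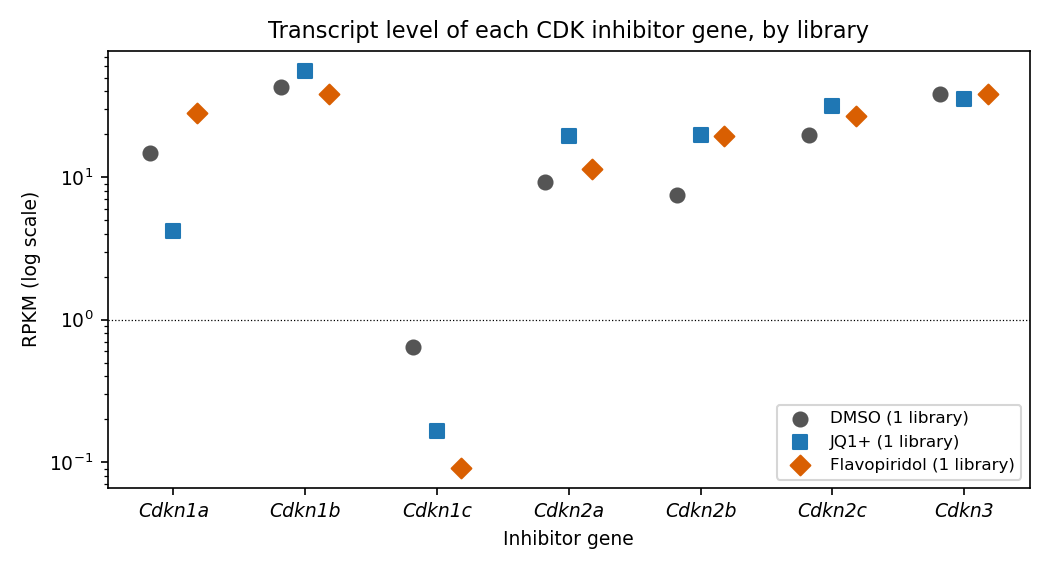
RPKM on a log axis for the 7 genes with a row, 1 point per library, with a dotted line at the minimum mean of 1 RPKM. Cdkn1a is lowest in JQ1+ (4.18) and highest in flavopiridol (28.0), Cdkn2b is higher in both drug libraries than in DMSO, and Cdkn1b is the highest point in each library.

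Cdkn1a, the p21 gene and a textbook target of p53, went in opposite directions with the 2 drugs, the pattern for which it was singled out. Its level was 14.7 RPKM in DMSO, 4.18 in JQ1+ and 28.0 in flavopiridol, from 687, 175 and 1069 deposited counts. The JQ1+ library was thus the low one and the flavopiridol library the high one, and the 3 counting intervals (12.9 to 16.7, 3.22 to 5.33 and 25.2 to 31.0) did not overlap. Cdkn1a fell with JQ1+, with a log2 change of -1.60, 3.52-fold lower (interval 2.66 to 4.7). With flavopiridol its log2 change was 0.89, a ratio of 1.91 (interval 1.62 to 2.25), which did not reach the 2-fold rule. Between the drugs it was 6.71-fold lower in JQ1+ (interval 5.13 to 8.89), a log2 difference of -2.49. Only 0.297% of the 14790 genes had a lower value in that comparison. In JQ1+ it ranked below every other member except Cdkn1c. GENCODE M21 has a gene overlapping Cdkn1a on the opposite strand that was not analysed here, and reads of such a pair cannot be told apart without strand.

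Cdkn1b, the p27 gene, was the highest member in each library, with 43.2 RPKM in DMSO, 55.9 in JQ1+ and 38.5 in flavopiridol. The order was the reverse of that of Cdkn1a, and the differences were smaller. The ratio to DMSO was 1.29 with JQ1+ (interval 1.21 to 1.39) and 0.892 with flavopiridol (interval 0.822 to 0.966), both within 2-fold. JQ1+ stood at 1.45 times flavopiridol (interval 1.34 to 1.57). On the log2 scale the flavopiridol change of -0.16 was -0.29 after median of ratios and -0.33 after TMM scaling, and the difference between the drugs of 0.53 was 0.74 and 0.78. As a result Cdkn1b exceeded Cdkn1a by 2.94 times in DMSO, 13.4 times in JQ1+ and 1.38 times in flavopiridol, or by 4.70, 21.4 and 2.20 times with the later gene lengths.

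Cdkn1c, the imprinted p57 gene, was near the limit of detection, with 26 counts in DMSO, 6 in JQ1+ and 3 in flavopiridol, or 0.64, 0.165 and 0.091 RPKM. The highest value was in DMSO. Against it the ratios were 0.258 for JQ1+ (interval 0.0313 to 1.18) and 0.142 for flavopiridol (interval 0.00352 to 1). Both intervals reach 1, so by them a difference from DMSO was not detectable. They rest on divided counts, and with undivided counts they were 0.0868 to 0.64 and 0.0275 to 0.464, below 1. As divided for the intervals, the counts were 2.21 in JQ1+ and 1.03 in flavopiridol, both below the 3 that a count of 0 would still allow.

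Among the INK4 genes, Cdkn2b, which encodes p15, rose with both drugs. It stood at 7.47 RPKM in DMSO, 19.8 in JQ1+ and 19.5 in flavopiridol, from 219, 521 and 467 counts. The drug libraries were alike and both lay above DMSO. The log2 change was 1.30 with JQ1+, a ratio of 2.66 (interval 2.03 to 3.51), and 1.28 with flavopiridol, a ratio of 2.61 (interval 1.98 to 3.48). The ratio of JQ1+ to flavopiridol was 1.02 (interval 0.819 to 1.26). Both rises use the same DMSO library, where Cdkn2b had its fewest counts. Both ended with a pseudocount of 5 RPKM, where the log2 changes were 0.99 and 0.98.

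Cdkn2a, the gene of p16Ink4a and p19Arf, was high in the JQ1+ library alone, with 9.28 RPKM in DMSO, 19.3 in JQ1+ and 11.4 in flavopiridol. Its log2 change with JQ1+ was 0.98, just short of the 2-fold rule, although the plain ratio was 2.07 (interval 1.58 to 2.75). It passed the rule with a pseudocount of 0.1 RPKM and under each of the 3 other scalings tried, at 1.04 to 1.06 for the scalings. With flavopiridol the ratio was 1.23 (interval 0.891 to 1.70). JQ1+ stood at 1.68 times flavopiridol (interval 1.28 to 2.24). Gm12606, a gene model next to Cdkn2a on the same strand that was looked at after its values were seen, went the other way, with 6.09 RPKM in DMSO, 1.12 in JQ1+ and 2.67 in flavopiridol.

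Cdkn2c, the p18 gene, was the most abundant of the 3 measured INK4 transcripts in each library, with 19.6 RPKM in DMSO, 31.6 in JQ1+ and 26.9 in flavopiridol. Both drug libraries were above DMSO, within 2-fold. The ratios were 1.61 with JQ1+ (interval 1.41 to 1.83) and 1.37 with flavopiridol (interval 1.19 to 1.58). Between the drugs the ratio was 1.17 (interval 1.03 to 1.33). The flavopiridol log2 change of 0.43 has to be read against a median of 0.13 over all genes, and it was 0.27 to 0.39 under the other scalings.

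Cdkn3, the phosphatase gene, was level across the libraries, with 38.2 RPKM in DMSO, 35.1 in JQ1+ and 38.4 in flavopiridol. Its ratio to DMSO was 0.919 with JQ1+ (interval 0.776 to 1.09) and 1.01 with flavopiridol (interval 0.847 to 1.19). Both intervals include 1. With flavopiridol the sign depended on the scaling, at -0.16 to 0.01 on the log2 scale. Cdkn3 is transcribed late in the cell cycle, and 18 genes of G2 and mitosis were set beside it. None of these passed 2-fold with either drug. Among all measured genes 1.98% rose and 5.29% fell with JQ1+, and 3.55% rose and 2.88% fell with flavopiridol. The 18 had a median log2 change of 0.06 with JQ1+ and 0.16 with flavopiridol, beside -0.08 and 0.13 for all genes. Mki67, the proliferation marker, stood at 386, 528 and 431 RPKM in DMSO, JQ1+ and flavopiridol.

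**Figure D2:**
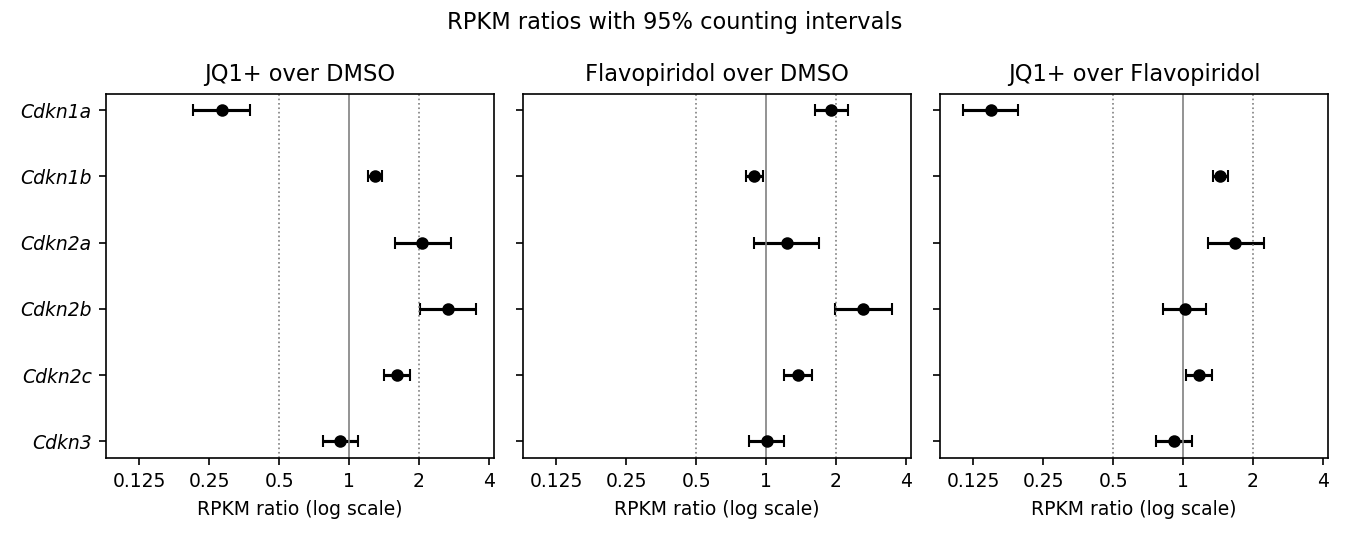
Ratio of RPKM on a log axis for the 6 genes that reached the minimum, in the 3 comparisons; bars are 95% intervals for counting error only, the solid line marks a ratio of 1 and dotted lines mark 2-fold. Cdkn1a lies at 0.284 with JQ1+ and 1.91 with flavopiridol, Cdkn2b at 2.66 and 2.61, and Cdkn3 close to 1 in all 3 panels.

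Counted by the 2-fold rule, 1 member rose (Cdkn2b) and 1 fell (Cdkn1a) of 6 with JQ1+, where 1.98% of all measured genes rose and 5.29% fell. With flavopiridol 1 rose (Cdkn2b) and none fell, against 3.55% and 2.88% of all genes. Between the drugs 1 was lower in JQ1+ (Cdkn1a) and none was higher, against 6.87% and 2.06%. The median log2 change of the 6 was 0.51 with JQ1+, beside -0.08 for all genes, and 0.35 with flavopiridol, beside 0.13. Over the 3 measured INK4 genes alone the medians were 0.98 and 0.43, and all 3 had ratios above 1 with each drug, also under the other scalings. With flavopiridol ratios above 1 were common, since 37% of measured genes lay below the 0.01 of Cdkn3. The share of genes with a lower change than Cdkn2a, Cdkn2b and Cdkn2c was 97.9%, 99% and 95% with JQ1+. With flavopiridol it was 65.4%, 98.1% and 79.4%, and the Cdkn2a interval included 1. The 2 comparisons with DMSO share that library, so their likeness is not independent.

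**Figure D3:**
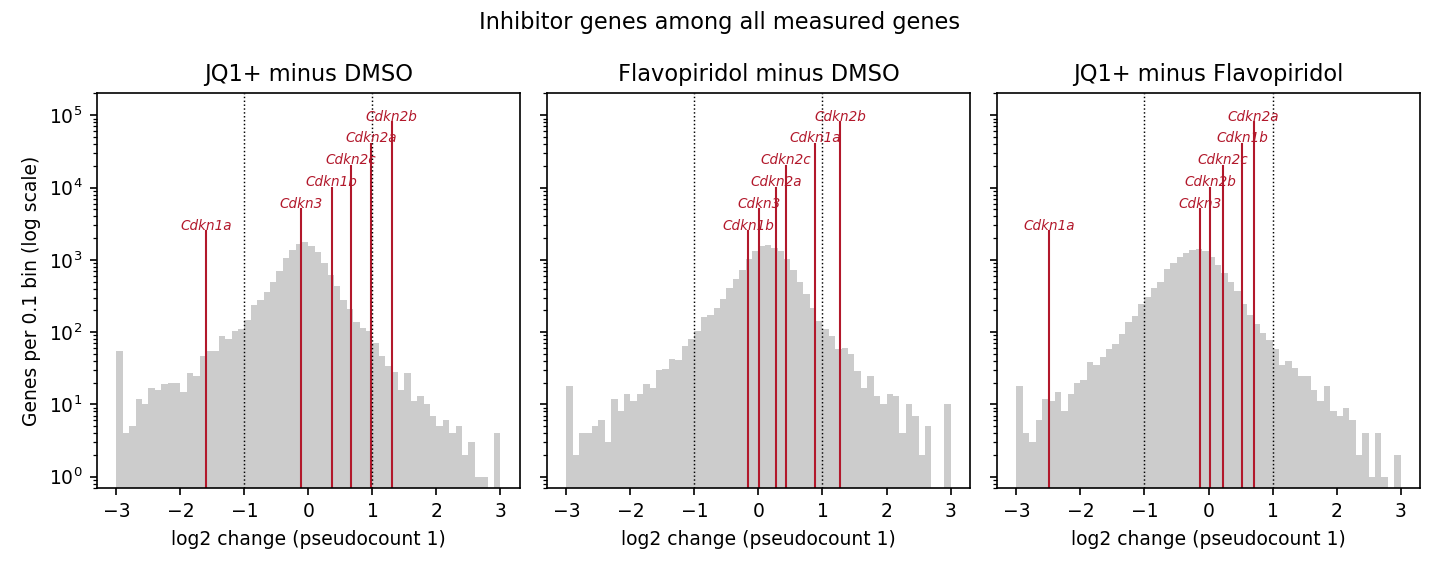
Histograms of the log2 change of 14790 genes in the 3 comparisons (count axis on a log scale, values beyond 3 in size drawn in the end bins), with red lines at the 6 inhibitor genes and dotted lines at the 2-fold rule. Cdkn1a lies in the lower tail with JQ1+ (-1.60) and against flavopiridol (-2.49), and Cdkn2b in the upper tail with each drug (1.30 and 1.28).

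The make-up of inhibitor transcripts shifted between families. Summed RPKM of the Cip/Kip genes were 58.5 in DMSO, 60.3 in JQ1+ and 66.6 in flavopiridol, while those of the INK4 genes were 36.4, 70.7 and 57.8. The Cip/Kip sum was thus 1.61 times the INK4 sum in DMSO, 0.853 times in JQ1+ and 1.15 times in flavopiridol. Within the Cip/Kip sum Cdkn1a made up 25.1% in DMSO, 6.93% in JQ1+ and 42.0% in flavopiridol. With the lengths of GENCODE M21 the Cip/Kip sum was 1.46, 0.83 and 0.97 times the INK4 sum, so that flavopiridol passed to the other side of 1, and the Cdkn1a share was 17.3%, 4.45% and 31.2%. Cdkn2d is not part of the INK4 sum. The kinases that INK4 proteins bind, Cdk4 and Cdk6, summed to 227 RPKM in DMSO, 233 in JQ1+ and 303 in flavopiridol. That was 6.23, 3.30 and 5.23 times the INK4 sum. These are RNA levels, and protein was not measured.

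**Figure D4:**
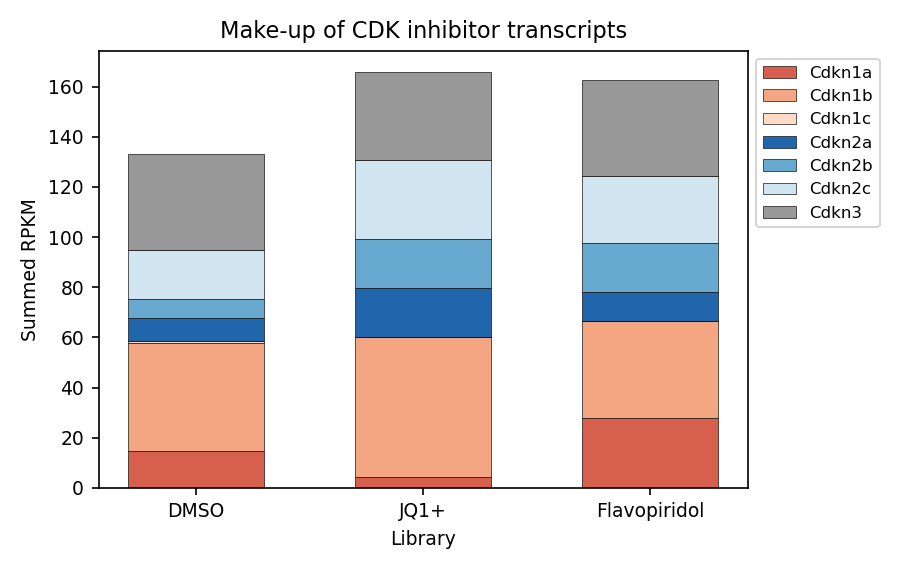
Stacked bars of RPKM for the 7 inhibitor genes in each library, starting at 0; red shades are Cip/Kip genes, blue shades INK4 genes and grey is Cdkn3. The blue INK4 part grows from 36.4 in DMSO to 70.7 in JQ1+ and 57.8 in flavopiridol, and the Cdkn1a part is narrowest in JQ1+.

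No gene of the machinery on which the inhibitors act passed 2-fold with either drug. The machinery lists held 12 target kinases and cyclins, 13 RB and E2F genes and 13 genes for the breakdown of inhibitor and cyclin proteins. Of all measured genes 1.98% rose and 5.29% fell with JQ1+, and 3.55% rose and 2.88% fell with flavopiridol. At such shares few or no genes would pass in lists this short. Cdk2 was at 87.8 RPKM in DMSO, 75.8 in JQ1+ and 77.5 in flavopiridol, and Cdk6 at 14.9, 17.7 and 26.7. The D-type cyclin Ccnd2 had log2 changes of -0.57 with JQ1+ and 0.23 with flavopiridol, and Ccnd3 of -0.53 and -0.47. Among the RB and E2F genes the largest changes with JQ1+ were those of Rb1, with 32.3 RPKM in DMSO, 59.3 in JQ1+ and 48.9 in flavopiridol, and of E2f2, with 43.7, 72.2 and 44.2. With flavopiridol the largest was that of Tfdp2 (0.60), beside 0.58 for Rb1. Skp2, which targets p27, stood at 7.64 RPKM in DMSO, 5.92 in JQ1+ and 12.6 in flavopiridol, and Fbxw7, which targets cyclin E, at 141, 85.0 and 117.

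Genes of the p53 axis were set beside Cdkn1a, from a list of 25 of which 24 were measured. With JQ1+ 1 rose and 2 fell, where 1.98% of all measured genes rose and 5.29% fell. With flavopiridol 4 rose and none fell, against 3.55% and 2.88% of all genes. A pseudocount of 5 RPKM left 1 fall with JQ1+ and 2 rises with flavopiridol. At that setting 363 of all 14790 genes fell with JQ1+ and 139 rose with flavopiridol. With a pseudocount of 0.1 RPKM, and under each of the other scalings, 2 rose and 2 fell with JQ1+. Of all genes 503 rose and 1144 fell at that pseudocount. Under the scalings 348 to 367 rose and 696 to 723 fell. The list's median log2 change was -0.31 with JQ1+ and 0.47 with flavopiridol, where all genes had -0.08 and 0.13. Phlda3, an inhibitor of Akt, had the order of Cdkn1a, with 15.8 RPKM in DMSO, 6.64 in JQ1+ and 43.2 in flavopiridol. Phlda3 fell with JQ1+ and rose with flavopiridol, where Cdkn1a stayed short of the 2-fold rule. Zmat3, an RNA-binding protein, rose with flavopiridol (1.20), as did the kinase Plk2 (1.54) and Perp (1.18). Sesn2, a stress-induced regulator of growth, fell with JQ1+ (-1.36), and Trp53inp1 rose (1.17). Between the drugs 8 of the 24 were lower in JQ1+ and none higher, against 6.87% and 2.06% of all measured genes. After rescaling by the median of ratios 3 were lower and 1 higher, beside 637 lower and 460 higher of all 14747 genes measured there. Trp53 itself stood at 38.9 RPKM in DMSO, 24.9 in JQ1+ and 33.5 in flavopiridol, and its antagonist Mdm2 at 76.4, 60.4 and 84.6. Trp53cor1, the long noncoding RNA gene near Cdkn1a known as lincRNA-p21 and looked at after its values were seen, had 1.43 RPKM in DMSO, 0.269 in JQ1+ and 1.54 in flavopiridol.

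Of 20 transcription regulators known to act on inhibitor genes, 2 rose and 2 fell with JQ1+, and 2 rose with flavopiridol. Over all measured genes 1.98% rose and 5.29% fell with JQ1+, and 3.55% rose with flavopiridol. Myc, which represses Cdkn1a and Cdkn2b with its partner Miz1 (Zbtb17), fell with JQ1+ (-1.34) and had a log2 change of 0.32 with flavopiridol. Tfap4, a MYC-induced repressor of Cdkn1a, stood at 24.9 RPKM in DMSO, 9.58 in JQ1+ and 39.9 in flavopiridol; it fell with JQ1+ (-1.29). Id2, an inhibitor of E proteins, rose with both drugs (1.53 and 2.19), and so did Prdm1 (1.29 and 1.04), which ends proliferation as B cells become plasma cells. After rescaling by the median of ratios 1 of the 20 rose with flavopiridol and 1 fell, beside 385 and 544 of all 14747 genes measured there. Bcl6, the germinal centre repressor of Cdkn1a, was at 10.3 RPKM in DMSO, 5.04 in JQ1+ and 4.83 in flavopiridol. The Polycomb genes Bmi1 and Ezh2, whose products silence the Cdkn2a locus, had log2 changes of 0.05 and -0.06 with JQ1+ and 0.17 and 0.39 with flavopiridol.

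Since Cdkn2c and Prdm1 are tied to plasma cells, 9 measured genes of that state were also compared. With each drug 2 rose and none fell: Prdm1 and Creb3l2 (1.25) with JQ1+, Prdm1 and Sdc1 (1.23) with flavopiridol. The shares of all measured genes that rose were 1.98% with JQ1+ and 3.55% with flavopiridol, and 5.29% and 2.88% fell. After rescaling by the median of ratios 1 rose with flavopiridol, beside 385 of all 14747 genes measured there. With a pseudocount of 5 RPKM 1 rose with each drug, and with 0.1 RPKM 1 fell with JQ1+. Of all 14790 genes 84 rose with JQ1+ and 139 with flavopiridol at 5 RPKM, and 1144 fell with JQ1+ at 0.1 RPKM. Xbp1, the factor of the secretory state, was at 556 RPKM in DMSO, 553 in JQ1+ and 423 in flavopiridol.

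**Figure D5:**
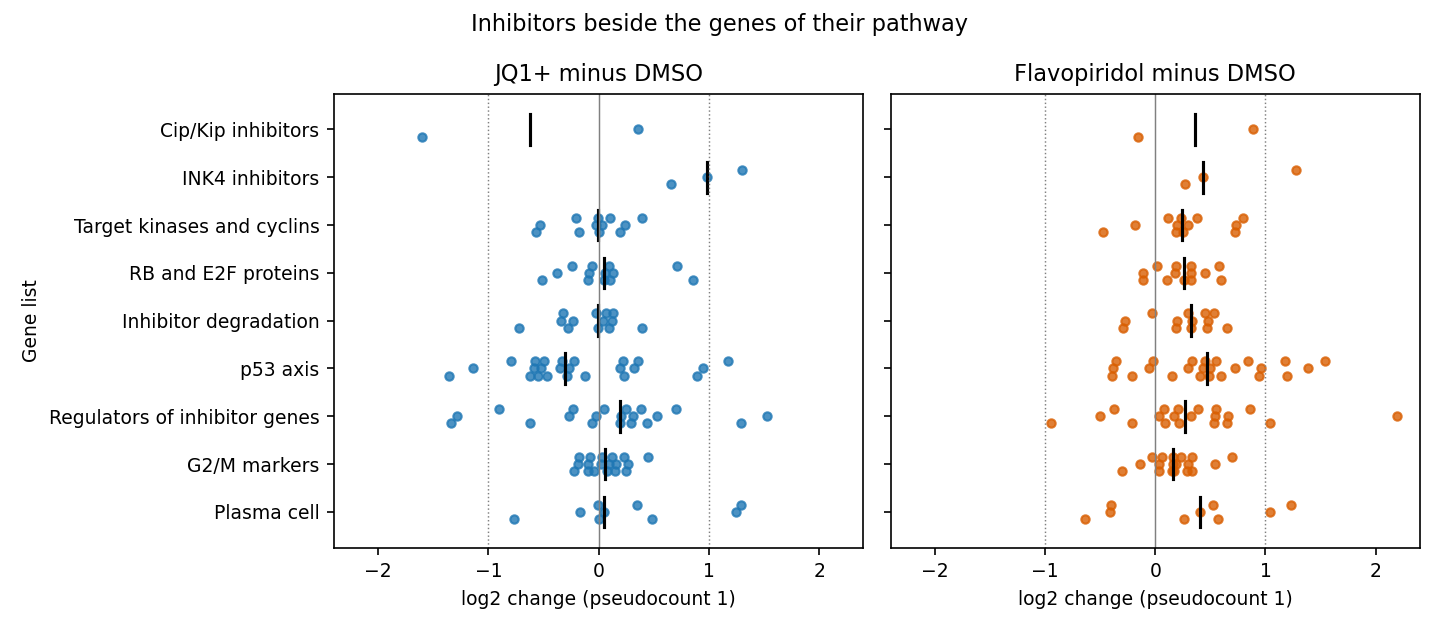
Log2 change against DMSO for each measured gene of 9 lists, JQ1+ on the left and flavopiridol on the right; each point is a gene, black bars are list medians and dotted lines mark 2-fold. The INK4 median lies at 0.98 with JQ1+, the p53 axis at -0.31 with JQ1+ and 0.47 with flavopiridol, and kinases, cyclins, RB and E2F genes stay inside the 2-fold lines.

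The genes most like each member were sought among 9323 other protein-coding genes that averaged 5 RPKM or more, by the Euclidean distance between their pairs of log2 changes over the 3 libraries. Nearest to Cdkn1a were the DNA repair gene Mgmt, with 8.60 RPKM in DMSO, 1.86 in JQ1+ and 18.7 in flavopiridol (distance 0.206), then the deoxycytidylate deaminase Dctd (0.343), Faim3, the receptor for IgM (0.37), Tfap4 (0.382) and Dnph1 (0.445). Nearest to Cdkn2b were the kinase Tec, with 17.6, 50.9 and 46.2 RPKM in the same order (0.192), the adhesion gene Epcam (0.23) and Prdm1 (0.234). Nearest to Cdkn2a were Slain1 (0.0274), Pde2a (0.0383) and Carhsp1 (0.0657). Nearest to Cdkn2c were Cenpp (0.0287), Tmem184c (0.051) and Fam166a (0.0548). Cdkn1b had Slc25a10 (0.0112), Mtmr12 (0.0119) and Gm20510 (0.0186), and Cdkn3 had Vcpip1 (0.00594), Dctn6 (0.00734) and Haus7 (0.00927). Small distances are common near the middle of the distribution, where most genes lie. Cdkn1a and Cdkn2b had no neighbour as near as those of the other members.

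Some markers of other cells differed between the libraries and stand beside these results. No measured T cell, cytotoxic or erythroid marker passed 2-fold against DMSO. Of 6 dendritic cell markers 4 were measured, and their summed level was 90 RPKM in DMSO, 10.7 in JQ1+ and 35.1 in flavopiridol. In DMSO most of that was Batf3 (55.9) and Flt3 (26.6), while Itgax was at 0.012, 0.02 and 0.029 RPKM and Siglech was listed at 0 in DMSO and flavopiridol. The other measured markers of that list did not follow the sum. Zbtb46 was at 6.63, 4.36 and 6.85 RPKM, and Xcr1, at 0.918, 0.763 and 2.59, was highest in flavopiridol. The 8 myeloid markers, 4 of them measured, summed to 31.2, 20.5 and 34.3 RPKM, with S100a8 and S100a9 listed at 0 in each library. The 6 markers of stroma and endothelium summed to 22.8, 5.69 and 12.4, nearly all Pecam1, with Col3a1 listed at 0 in DMSO and JQ1+. The 7 T cell markers summed to 23, 26.4 and 17.2, mostly Lck, the 5 cytotoxic markers to at most 3.11 and the 4 erythroid markers matched to at most 2.63. The myeloid sum had the order of Cdkn1a through Emr1 alone (0.922, 0.801 and 9.47 RPKM); without it the sum was 30.3, 19.7 and 24.8. No sum had the order of Cdkn2b, low in DMSO and high in both drugs. Each sum came mostly from a few genes, and some single markers below the minimum did have that order. Among them were Itgam (0.246, 0.503 and 0.347 RPKM), Nkg7 (0.108, 0.786 and 0.265) and Cd3d (0.359, 0.862 and 0.506). The part of other cells in the results was not tested.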

How the data were processed

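RNA of 3 cultures, 1 per treatment, was depleted of ribosomal RNA (Ribo-Zero) and made into Illumina libraries, per the labels' protocols. The deposited counts are whole, unnormalised reads per gene, per the file headers. The deposited RPKM were scaled by the authors, per the file headers, with lengths and totals that are not stated. The build is mm9, per the submitters' processing notes. Aligner, counter, annotation and strand use: not given in the sources used here.

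Of 33700 rows 1 per symbol was kept (highest mean). The pseudocount of 1 RPKM understates changes of low genes. Counts summed to 2.84 (DMSO), 2.72 (JQ1+) and 2.92 (flavopiridol) times the total implied by count, RPKM and GENCODE M21 exon length. The counts may therefore not be independent fragments, which the sources do not settle. They were divided by these factors for intervals of the exact form (binomial for ratios, Poisson for levels, scipy 1.17.1). With divided counts, which are not whole, these intervals are approximate. Of the intervals only that for ratios was tested on simulated data, with undivided counts. No model was fitted; edgeR 4.0.16 gave TMM factors as an alternative scaling. Other pseudocounts, minimums and scalings were tried.

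Members, lists and rules were chosen with earlier results of these data known. Besides members, the text names genes from up to 4 per list with the largest change against DMSO, Trp53, Mdm2, Myc, Bcl6, Prdm1, Skp2, Cdk2, Cdk4, Cdk6, Ccnd2 and Ccnd3, and the genes nearest each member (5 for Cdkn1a, 3 for others). Perp, Trp53inp1, Zbtb17, Xbp1, Bmi1, Ezh2, Itgam, Nkg7, Cd3d and markers at or near 0 were named after their values were seen. Jchain and Hbb-b1 were not matched.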

Additional observations from a re-analysis of the deposited data

How the results depend on the processing

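Over 7 alternatives, 19 of 21 counts of members past 2-fold stayed within 1.5 times of the reported ones. The exceptions came with a pseudocount of 5 RPKM, which shrinks changes of low genes: 1 member passed with JQ1+ (Cdkn1a) in place of 2, and 0 with flavopiridol in place of 1. With a pseudocount of 0.1 RPKM, median of ratios, sum of counts or TMM scaling, 3 passed with JQ1+, Cdkn2a being the addition. Cdkn1a fell with JQ1+ under each alternative (-1.79 to -1.10) and had 0.72 to 0.93 with flavopiridol, short of 2-fold in each. Cdkn3 changed sign with the scaling (-0.16 to -0.03 with flavopiridol). Of 294 list counts 31 moved by over 1.5 times. The scalings moved the median of all genes with flavopiridol from 0.13 to between -0.03 and 0.09, and the share of called genes that were lower from 44.8% to 58.6% with the median of ratios and 62.7% with TMM; between the drugs it went from 77% to 58.1% and 53.8%. The share with JQ1+ against DMSO went from 72.7% to 65.7% and 65.5%. Called genes of all kinds numbered 1647 with JQ1+ at a pseudocount of 0.1 and 447 at 5, against 1075 reported. With flavopiridol they numbered 1472 and 322, against 951. Under the other scalings 1063 to 1071 were called with JQ1+. Undivided counts narrowed the interval of Cdkn2b with JQ1+ to 2.26 to 3.13, and took the Cdkn1c intervals against DMSO below 1. No replicate could be left out and no paired analysis was possible because each treatment had 1 library. The GENCODE M21 lengths and the myeloid sum without Emr1 were alternatives chosen after seeing the data. Counting error limits Cdkn1c most.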
